A study of Mus musculus with 8 samples.

Results

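The Bcl2 family genes described here are 10 genes of cell survival and cell death, chosen by their symbols among the 55414 gene identifiers of each count file and found through the GENCODE M21 annotation of the mouse genome (GRCm38). They are the pro-survival genes Bcl2, Bcl2l1 (which encodes Bcl-xL), Mcl1 and the A1 copies Bcl2a1a, Bcl2a1b and Bcl2a1d, the BH3-only genes Bcl2l11 (which encodes Bim) and Bid, and the pore-forming effectors Bax and Bak1. All 10 were found by 1 identifier each, and all 10 passed the filter on low counts that left 16778 genes to be tested. They were measured by RNAseq in neutrophils sorted from the spleen as CD45+ CD11b+ Ly6G+ F4/80- cells after a positive selection for CD11b. The 8 mice, 4 WT and 4 Cxcr2-/-, were on the FVB background, aged 10 weeks and kept in SOPF housing, with 1 library per mouse. The Cxcr2-/- line had been backcrossed to FVB for more than 12 generations. The knockout is present in every cell of the animal from birth, so the other cells of the Cxcr2-/- mice lack the chemokine receptor as well. The comparison asks how the RNA of the survival and death genes differs in spleen neutrophils that lack Cxcr2.

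Bcl2 family proteins control the mitochondrial route of apoptosis. Bax and Bak open pores in the outer membrane of mitochondria, the pro-survival proteins bind and restrain them, and the BH3-only proteins are upstream sensors that occupy the pro-survival proteins or activate the effectors directly. Once the membrane is open, cytochrome c meets Apaf1 and starts the caspase cascade. Mature neutrophils are short-lived cells that are known to depend on Mcl1, whose protein turns over quickly, and to make little Bcl2. A1 is known as a pro-survival gene of leukocytes that inflammatory signals induce, and the mouse carries several near-identical copies of it.

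The WT libraries held 34220182 to 46233555 counts on genes and the Cxcr2-/- libraries 37549648 to 43789253. Cxcr2, the targeted gene, lay between 1719 and 2252 CPM (counts scaled by the TMM-normalized library size, per 1e6) in WT and between 12.9 and 20.7 CPM in Cxcr2-/- libraries. Neutrophil markers summed to 32928 to 46032 CPM in WT and to 66559 to 79749 CPM in Cxcr2-/- libraries, and none of the 8 was at 0. Of these, 5 were higher and 2 lower in Cxcr2-/- mice. Most of the sum was S100a8 and S100a9, while Csf3r, at 6960 ± 462 CPM (SD, n = 4) in WT and 3334 ± 147 CPM in Cxcr2-/- mice, and Ptprc, at 4354 ± 218 and 2553 ± 227 CPM, were the lower ones. The immature neutrophil markers were higher in Cxcr2-/- for 9 of 9 genes and the cycling markers for 6 of 6. Primary granule RNA (Mpo, Elane, Prtn3 and Ctsg) set libraries apart within the Cxcr2-/- group, with summed levels of 53.4, 54.7, 208 and 351 CPM in replicates 1 to 4, against 2.40 to 12.5 CPM in WT. B cell markers summed to 71.4 to 153 CPM in WT and to 30.8 to 71.6 CPM in Cxcr2-/- libraries, with 5 of 7 genes lower. Monocyte and macrophage markers summed to 509 to 609 CPM in WT and to 255 to 396 CPM in Cxcr2-/- libraries, with 2 of 8 genes lower and 1 higher. Most of that sum was Csf1r, which was lower, and the gene that was higher was Ccr2. In WT replicate 2 the macrophage genes C1qa, C1qb and C1qc were at 5.04 to 6.39 CPM, against 0.058 to 1.71 CPM in the other WT libraries. T and NK cell markers summed to 98.7 to 119 CPM in WT and to 92.3 to 140.3 CPM in Cxcr2-/- libraries, nearly all of it Cd3d. Cd3e and Cd3g had means of 0.206 and 0.937 CPM in WT mice, so that sum is mainly a value of 1 gene. Of the 6 tested, only Cd4 passed, and it was lower (1.27 to 14.1 CPM in WT, 0.553 to 1.85 CPM in Cxcr2-/- libraries). Dendritic cell markers summed to 9.14 to 28.6 CPM in WT and to 5.81 to 8.65 CPM in Cxcr2-/- libraries. Markers of eosinophils, basophils and mast cells summed to 38.8 to 56.0 CPM in WT and to 34.9 to 57.0 CPM in Cxcr2-/- libraries. Of these 6 genes, 2 were higher and 1 was lower. The erythroid and the megakaryocyte sums were each at most 8.14 CPM. RNA of more or fewer cells of a type and more or less RNA per cell cannot be told apart in these bulk samples.

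The A1 copies are described on their own, because part of their sequence is shared and reads from that part cannot be given to 1 copy. The first 120 coding bases of each copy are shown with the bases that differ between the copies in capitals, read from the GENCODE M21 transcripts.
Bcl2a1a: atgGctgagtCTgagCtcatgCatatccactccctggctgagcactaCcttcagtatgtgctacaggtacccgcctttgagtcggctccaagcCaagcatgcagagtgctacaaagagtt
Bcl2a1b: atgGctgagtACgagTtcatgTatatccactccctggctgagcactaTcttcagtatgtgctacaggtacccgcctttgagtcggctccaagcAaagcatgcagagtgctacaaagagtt
Bcl2a1d: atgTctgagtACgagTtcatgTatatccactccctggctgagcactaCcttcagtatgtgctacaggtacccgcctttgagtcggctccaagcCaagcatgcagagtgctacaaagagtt
The stretch holds 7 of the 12 coding positions that separate the copies. Over the 516 coding bases, Bcl2a1a and Bcl2a1b were 97.9% identical, Bcl2a1a and Bcl2a1d 98.6%, and Bcl2a1b and Bcl2a1d 98.8%. Of all windows of the length of a read in the transcripts, 28.2% of those of Bcl2a1a, 41.9% of those of Bcl2a1b and 30.3% of those of Bcl2a1d were also found in another gene. A read pair that aligned to more than 1 place was not counted. In addition, 49.1% of the exon bases of Bcl2a1b are shared with Gm29094, a gene model on the same strand that was listed at 0 counts in every library, so pairs that met both were left out as ambiguous. The counts of the A1 copies were therefore lower than their RNA by an unknown factor, and reads could have moved between the copies. Among the other members, 2.54% of the windows of Bax were shared with a gene on the same strand (Gm45808), and none of those of Bcl2, Bcl2l1, Mcl1, Bcl2l11, Bid and Bak1.

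All members matched a RefSeq promoter of GRCm38.p6, with 13 start sites in all. The 250 bases before each start were searched on both strands for 6 motifs. These were AP-1 as TGANTCA, CRE as TGACGTCA, NF-kB as GGG, NN and TTTCC in a row, PU.1 as GAGGAAGT, C/EBP as TTGCNNAA and forkhead as TGTTTAC. Of all 32851 promoters searched in the same way, 6.75% held AP-1, 1.55% CRE, 1.41% NF-kB, 2.44% PU.1, 9.56% C/EBP and 3.17% forkhead. The stretches shown are from the promoters of the A1 copies, which fell together, of Mcl1, the member with the most RNA, and of Bcl2l11, with the motifs in capitals and each sequence on the strand of its gene.
Bcl2a1a, chr9:88956740-88956849 (+), AP-1 then PU.1: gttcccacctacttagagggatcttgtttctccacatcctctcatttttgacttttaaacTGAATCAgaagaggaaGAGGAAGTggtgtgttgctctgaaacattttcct
Bcl2a1b, chr9:89199049-89199158 (+), AP-1 then PU.1: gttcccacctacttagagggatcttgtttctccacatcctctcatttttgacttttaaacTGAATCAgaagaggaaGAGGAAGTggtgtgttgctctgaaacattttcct
Bcl2a1d, chr9:88731915-88732024 (-), AP-1 then PU.1: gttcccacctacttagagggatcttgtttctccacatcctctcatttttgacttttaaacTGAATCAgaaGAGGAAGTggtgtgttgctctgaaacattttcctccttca
Mcl1, chr3:95658593-95658712 (+), NF-kB on the opposite strand: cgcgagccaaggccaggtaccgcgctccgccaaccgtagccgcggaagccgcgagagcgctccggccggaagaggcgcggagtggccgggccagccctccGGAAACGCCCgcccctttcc
Bcl2l11, chr2:128125791-128125900 (+), forkhead on the opposite strand: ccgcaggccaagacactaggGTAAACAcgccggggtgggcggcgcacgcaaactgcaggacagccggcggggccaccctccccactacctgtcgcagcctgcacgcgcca
The windows of Bcl2a1a and Bcl2a1b were identical over all 110 bases. That of Bcl2a1d was identical to both over its first 77 bases. It had 1 rather than 2 copies of gaggaa before the end of the PU.1 motif, and it meets an annotated exon. The AP-1 and PU.1 motifs did not overlap each other. Elsewhere, 1 of the 3 start sites of Bcl2l1 held the NF-kB motif, Bid held C/EBP and Bak1 held PU.1, and none of the 6 motifs was found before Bcl2 or Bax. A match describes these letters only, and binding was not measured.

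Most of the family changed, and not in the direction of one role. Mcl1 and the A1 copies were lower in Cxcr2-/- than in WT neutrophils while Bcl2l1 was higher, so pro-survival genes moved both ways. Both BH3-only members, Bcl2l11 and Bid, were lower, and of the effectors Bak1 was higher while Bax and the founding gene Bcl2 did not pass the test. In all, 8 of the 10 members had an adjusted p under 0.05 in the quasi-likelihood test of edgeR (Benjamini-Hochberg over all genes), 2 higher and 6 lower, where 44.7% of all genes tested passed. The shares of all genes were 23.7% higher and 21.0% lower. All 8 also changed by at least 1.5-fold, where 31.3% of all genes tested did. The groups did not overlap for 7 members, against 41.6% of all genes tested. The median log2 fold change (Cxcr2-/- over WT) was -0.81 over the members and 0.013 over all genes tested. The A1 copies enter these counts and the median as separate genes, although reads could have moved between them. With the copies summed, 2 members were higher and 4 lower.

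**Figure D1:**
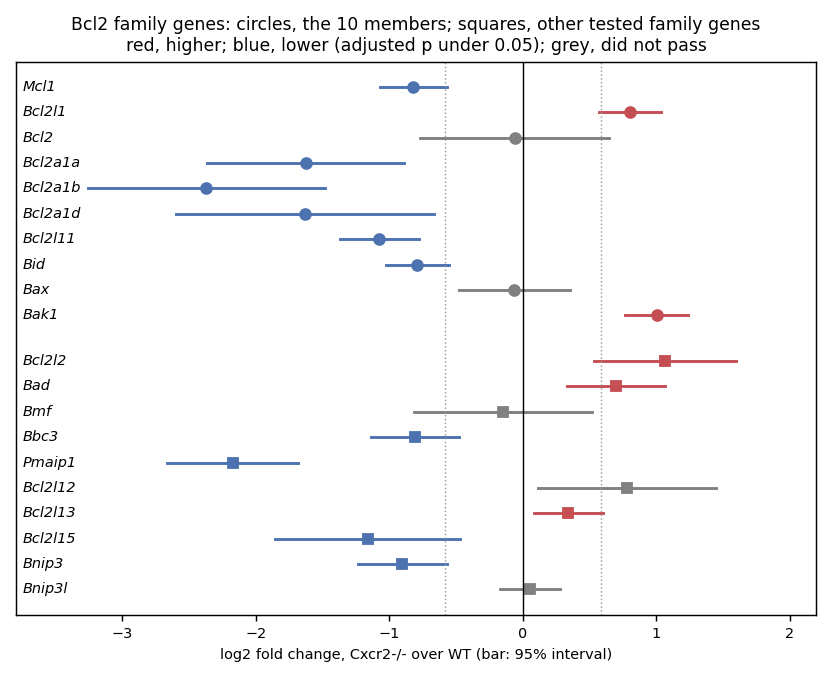
log2 fold change of each tested Bcl2 family gene, Cxcr2-/- over WT, with its 95% interval (dotted lines, 1.5-fold; circles, the 10 members; squares, the other 10 tested family genes). Bak1 (1.003) and Bcl2l1 (0.80) lie to the right among the members, Bcl2a1b (-2.37) lies farthest left, and the intervals of Bcl2 and Bax span 0.

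Mcl1 (ENSMUSG00000038612, chr3:95658788-95663176, + strand) encodes the pro-survival protein that neutrophils are known to need. Its RNA was at 2824, 2236, 2164 and 2601 CPM in the WT mice and at 1453, 1386, 1316 and 1404 CPM in the Cxcr2-/- mice. Every Cxcr2-/- library was below every WT library, and the Cxcr2-/- mice were also closer to each other (1389.8 ± 56.8 CPM, SD, n = 4) than the WT mice (2456 ± 311 CPM). The log2 fold change was -0.82 (SE 0.12, 95% interval -1.07 to -0.57, adjusted p = 1.07e-04 by edgeR), a level 1.77-fold lower. SEs here were derived from the test statistic and are approximate.

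Bcl2l1 (ENSMUSG00000007659, chr2:152780668-152831728, - strand) encodes Bcl-xL, a pro-survival protein with a long half-life. It was at 31.7, 25.7, 31.9 and 27.1 CPM in WT and at 54.3, 48.9, 55.7 and 44.3 CPM in Cxcr2-/- mice. The lowest Cxcr2-/- library lay above the highest WT library. Bcl2l1 had a log2 fold change of 0.80 (SE 0.11, 95% interval 0.57 to 1.04, adjusted p = 6.89e-05 by edgeR), and the level was 1.75-fold higher.

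Bcl2 (ENSMUSG00000057329, chr1:106538178-106714274, - strand), the gene that gave the family its name, stood at 3.98, 2.85, 4.04 and 1.39 CPM in WT mice and at 1.97, 2.27, 4.12 and 3.43 CPM in Cxcr2-/- mice. The groups overlapped over nearly their whole range, with the lowest value in a WT library and the highest in a Cxcr2-/- library. Its log2 fold change was -0.059, with a 95% interval from -0.77 to 0.65 (adjusted p = 0.898 by edgeR), and changes within that interval were not excluded. Its direction turned when single libraries were left out.

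The A1 copies lie on chromosome 9 as Bcl2a1a (ENSMUSG00000102037, chr9:88956900-88962419, + strand), Bcl2a1b (ENSMUSG00000089929, chr9:89199209-89207827, + strand) and Bcl2a1d (ENSMUSG00000099974, chr9:88723285-88731914, - strand). Bcl2a1a had 83, 106, 62 and 34 counts in WT and 13, 17, 20 and 34 counts in Cxcr2-/- libraries, which scaled to 1.83, 2.13, 1.66 and 0.983 CPM and to 0.329, 0.470, 0.508 and 0.826 CPM. Bcl2a1b had 72, 52, 50 and 46 counts in WT and 12, 2, 14 and 12 counts in Cxcr2-/- libraries, or 1.04 to 1.59 CPM against 0.055 to 0.356 CPM. Bcl2a1d had 93, 76, 39 and 22 counts in WT and 7, 11, 22 and 27 counts in Cxcr2-/- libraries, or 0.636 to 2.06 CPM against 0.177 to 0.656 CPM. For Bcl2a1d the groups met, since Cxcr2-/- replicate 4 was slightly above WT replicate 4, while those of Bcl2a1a and Bcl2a1b stayed apart. The log2 fold changes were -1.63 for Bcl2a1a (SE 0.34, adjusted p = 0.00192), -2.37 for Bcl2a1b (SE 0.41, adjusted p = 4.95e-04) and -1.63 for Bcl2a1d (SE 0.45, adjusted p = 0.0100) by edgeR, with wide intervals that overlapped one another.

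Summing the copies into 1 feature removes the question of which copy a read belonged to. The sum was 248, 234, 151 and 102 counts in WT and 32, 30, 56 and 73 counts in Cxcr2-/- libraries, or 4.29 ± 1.07 CPM and 1.21 ± 0.472 CPM (SD, n = 4). The groups did not overlap for the sum. The log2 fold change was -1.82 (SE 0.29, 95% interval -2.45 to -1.20, adjusted p = 2.67e-04 by edgeR), a level 3.55-fold lower. B cells and monocytes are also known to make A1. B cell marker RNA was lower in Cxcr2-/- libraries too, at 153, 71.4, 123 and 88.0 CPM in WT mice and at 35.1, 30.8, 56.6 and 71.6 CPM in Cxcr2-/- mice. The monocyte and macrophage sum was also lower, but most of it was Csf1r (mean 442 CPM in WT and 232 CPM in Cxcr2-/- mice). Adgre1 was lower as well, while Ccr2 was higher (mean 7.29 and 24.1 CPM). The other 5 of the 8 markers did not pass. The part of these cells in the A1 result was not tested.

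**Figure D2:**
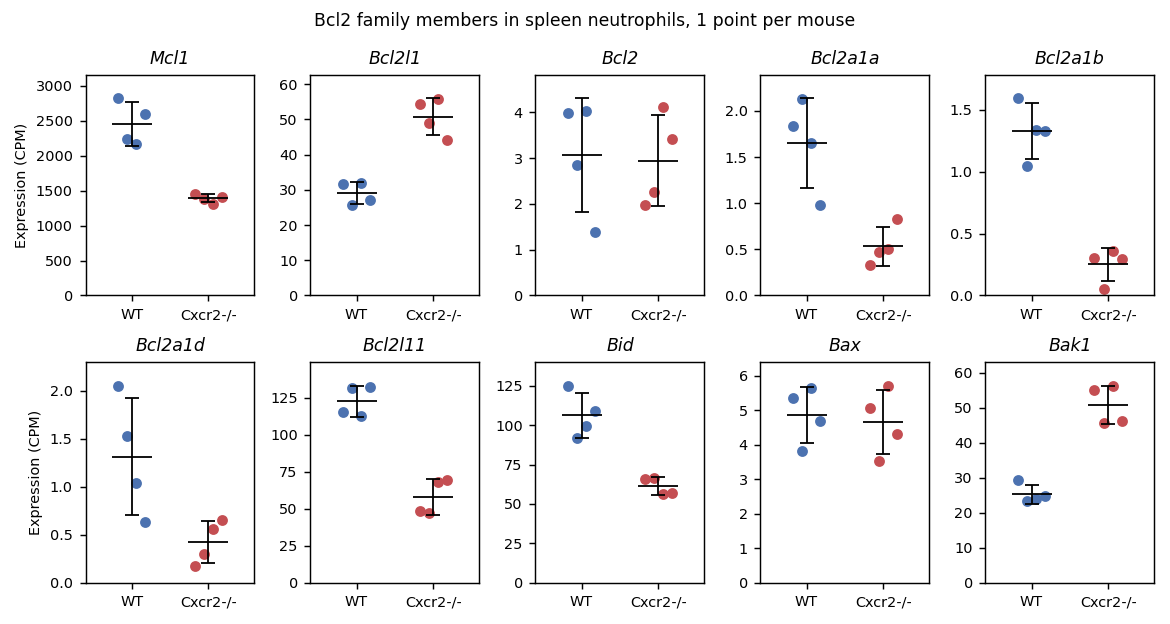
Expression of the 10 members in CPM, 1 point per mouse from replicate 1 on the left to replicate 4 on the right within each group, with mean and SD (n = 4). Mcl1, Bcl2l11 and Bid sit lower and Bcl2l1 and Bak1 higher in every Cxcr2-/- mouse than in any WT mouse, while Bcl2 and Bax overlap.

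Bcl2l11 (ENSMUSG00000027381, chr2:128126038-128162547, + strand) encodes Bim, a BH3-only protein that binds all pro-survival members and is known in the turnover of leukocytes. It was at 115, 131, 112 and 132 CPM in WT and at 48.5, 46.8, 68.0 and 69.3 CPM in Cxcr2-/- mice. All Cxcr2-/- libraries were below all WT libraries, and Cxcr2-/- replicates 3 and 4 lay above replicates 1 and 2. Its log2 fold change was -1.08 (SE 0.14, 95% interval -1.37 to -0.78, adjusted p = 4.68e-05 by edgeR), a level 2.11-fold lower.

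Bid (ENSMUSG00000004446, chr6:120891930-120916853, - strand) encodes the BH3-only protein that caspase-8 cleaves, which links death receptors to mitochondria. It was at 125, 91.6, 99.4 and 109 CPM in WT and at 65.8, 66.5, 56.5 and 56.9 CPM in Cxcr2-/- mice. The groups did not overlap. Bid had a log2 fold change of -0.79 (SE 0.11, 95% interval -1.03 to -0.55, adjusted p = 9.04e-05 by edgeR). Bid shares 17.7% of its exon bases with Bcl2l13 on the opposite strand, and the strand setting of the counting is not given in the sources used here, so reads of the pair are uncertain.

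Bak1 (ENSMUSG00000057789, chr17:27019810-27029009, - strand) encodes Bak, the effector that sits in the mitochondrial membrane of resting cells. It was at 29.3, 23.3, 24.03 and 24.8 CPM in WT and at 55.1, 45.8, 56.1 and 46.2 CPM in Cxcr2-/- mice. Every Cxcr2-/- library was above every WT library. Its level was 2.004-fold higher, with a log2 fold change of 1.003 (SE 0.11, 95% interval 0.77 to 1.24, adjusted p = 1.27e-05 by edgeR). Models named Ggnbp1 on the opposite strand share 18.2% and 7.35% of its exon bases, with at most 265 counts in any library.

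Bax (ENSMUSG00000003873, chr7:45461697-45466898, - strand) encodes the effector that moves from the cytosol to mitochondria. It was at 5.35, 3.82, 5.64 and 4.69 CPM in WT and at 5.06, 3.54, 5.72 and 4.33 CPM in Cxcr2-/- mice. The ranges were nearly the same. Bax had a log2 fold change of -0.063 (95% interval -0.48 to 0.35, adjusted p = 0.815 by edgeR). The gene Gm45808 on the same strand shares 12.2% of the exon bases of Bax and was listed at 0 counts in every library, so pairs that met both were not counted. The interval of Bak1 lay wholly above that of Bax, although a test of the difference between the genes was not run.

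Levels can be set side by side between genes only per length, as CPM per kb of exon. On that scale Mcl1 stood far above the rest of the family in both genotypes, at 719 ± 91.0 CPM per kb in WT and 407 ± 16.6 CPM per kb in Cxcr2-/- mice (SD, n = 4). In WT neutrophils it was followed by Bid (29.9 CPM per kb), Bcl2l11 (15.3), Bak1 (10.5), Bcl2l1 (6.35) and Bax (3.09), and the ranges of these neighbours did not overlap. Bax, Bcl2a1a, Bcl2a1b and Bcl2a1d overlapped with their neighbours, from 3.09 to 1.52 CPM per kb, and Bcl2 was lowest at 0.335 ± 0.136 CPM per kb. In Cxcr2-/- neutrophils the order below Mcl1 was Bak1 (21.1 CPM per kb), Bid (17.3), Bcl2l1 (11.1), Bcl2l11 (7.24) and Bax (2.96), again with no overlap between neighbours. The last places were taken by Bcl2a1a (0.651 CPM per kb), Bcl2a1d (0.492), Bcl2 (0.322) and Bcl2a1b (0.308), whose ranges overlapped from one to the next. Bak1 thus stood at rank 4 among the members in WT and at rank 2 in Cxcr2-/- mice, and Bcl2l11 at ranks 3 and 5. The levels of the A1 copies and of Bax are lower limits, because shared reads were not counted. The length of a gene was that of all its GENCODE M21 exons merged, not that of the transcripts made in these cells. The ranks between genes depend on these lengths, while a change of 1 gene between the genotypes does not.

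**Figure D3:**
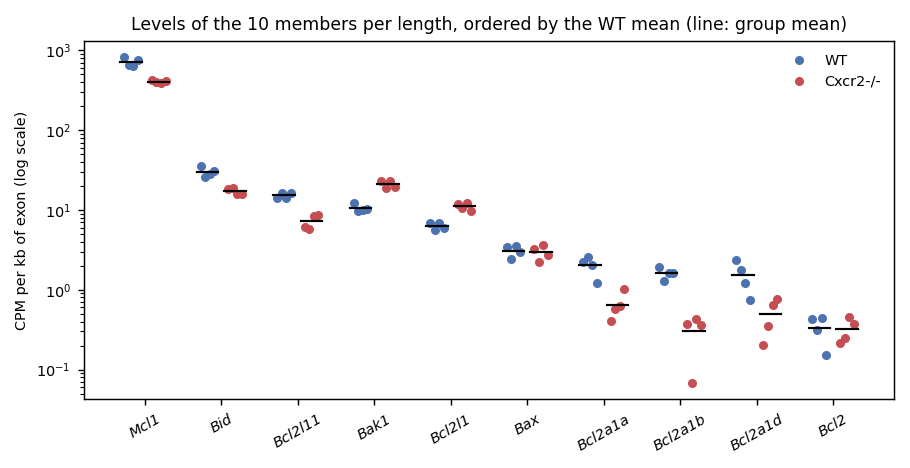
Level of each member in CPM per kb of exon on a log axis, 1 point per mouse, with the group mean as a line and the genes ordered by the WT mean. Mcl1 stands at 719 CPM per kb in WT and 407 in Cxcr2-/- mice, and Bak1 and Bcl2l1 rise above Bcl2l11 in Cxcr2-/- mice.

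Ratios of members within a library do not depend on how libraries were scaled to each other. Per kb, Mcl1 RNA was 114 ± 16.2 times that of Bcl2l1 in WT and 37.0 ± 4.51 times in Cxcr2-/- mice, with ranges of 90.9 to 129 and 31.7 to 42.5. Mcl1 was 68.2 ± 4.35 times Bak1 in WT and 19.5 ± 2.36 times in Cxcr2-/- mice, where ranges of 63.4 to 74.0 and 16.5 to 21.4 lay far apart. The ratio of Mcl1 to Bid was 24.1 ± 1.26 in WT and 23.6 ± 1.70 in Cxcr2-/- mice and overlapped, since both genes were lower by a similar factor. The ratio of Bcl2l1 to Bak1, both higher in Cxcr2-/- mice, was 0.605 ± 0.0621 and 0.526 ± 0.0246, with ranges of 0.567 to 0.698 and 0.503 to 0.561. Bcl2l11 fell from above to below Bak1 per length, with a ratio of 1.47 ± 0.228 in WT and 0.346 ± 0.0803 in Cxcr2-/- mice. Mcl1 made up 91.0% ± 0.542 of the summed per-length level of the 10 members in WT and 86.9% ± 0.982 in Cxcr2-/- mice, while Bak1 went from 1.34% to 4.51% and Bcl2l1 from 0.812% to 2.37%. These ratios are descriptions, with no test.

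Within the Cxcr2-/- group, some family genes followed the split of primary granule RNA between the libraries and others did not. The sum of all 9 immature neutrophil markers did not follow it, at 63673, 53683, 51152 and 44657 CPM in replicates 1 to 4. Of the listed markers outside the primary granule genes, Ltf, Camp and Chil3 were lower in replicates 3 and 4 than in replicates 1 and 2. Fcnb was higher there, and Ngp did not separate the pairs. Bcl2, Bcl2l11, Bcl2a1a and Bcl2a1d were each higher in Cxcr2-/- replicates 3 and 4 than in replicates 1 and 2, as were the BH3-only genes Pmaip1 and Bmf. For Bcl2a1a the gap was narrow, with 0.470 CPM in replicate 2 and 0.508 CPM in replicate 3. The share of all genes tested that separate these libraries in the same way was not counted, so the number of such genes is a description only. Bmf, which encodes a BH3-only protein tied to the cytoskeleton, was at 2.12 and 2.82 CPM in replicates 1 and 2 and at 5.95 and 5.61 CPM in replicates 3 and 4, against 3.62 to 5.87 CPM in WT. Over all libraries its log2 fold change was -0.15 (95% interval -0.81 to 0.52, adjusted p = 0.724 by edgeR). Without Cxcr2-/- replicates 3 and 4, an alternative chosen after the data were seen, it was -0.90 (adjusted p = 0.0136 by edgeR with 2 libraries against 4). The B cell marker sum was also higher in Cxcr2-/- replicates 3 and 4 (56.6 and 71.6 CPM) than in replicates 1 and 2 (35.1 and 30.8 CPM), and so was the monocyte gene Ccr2 (34.4 and 45.7 CPM against 7.48 and 8.85 CPM). The eosinophil, basophil and mast cell sum was higher there too (47.3 and 57.0 CPM against 34.9 and 35.6 CPM). The T and NK cell sum was lower there (99.1 and 92.3 CPM against 140 and 118 CPM). The part of these cells in the member levels was not tested. Without both replicates all 8 members that passed did so again, at log2 fold changes of -0.81 for Mcl1, 0.81 for Bcl2l1, -1.38 for Bcl2l11, -0.70 for Bid and 0.97 for Bak1, and of -2.06, -2.86 and -2.47 for Bcl2a1a, Bcl2a1b and Bcl2a1d. Bid went the other way, at 65.8 and 66.5 CPM in Cxcr2-/- replicates 1 and 2 and at 56.5 and 56.9 CPM in replicates 3 and 4. Mcl1, between 1316 and 1453 CPM in all Cxcr2-/- mice, did not follow the split. Neither did Bcl2l1, Bak1, Bax and Bcl2a1b, the last at 0.303, 0.055, 0.356 and 0.292 CPM in replicates 1 to 4.

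**Figure D4:**
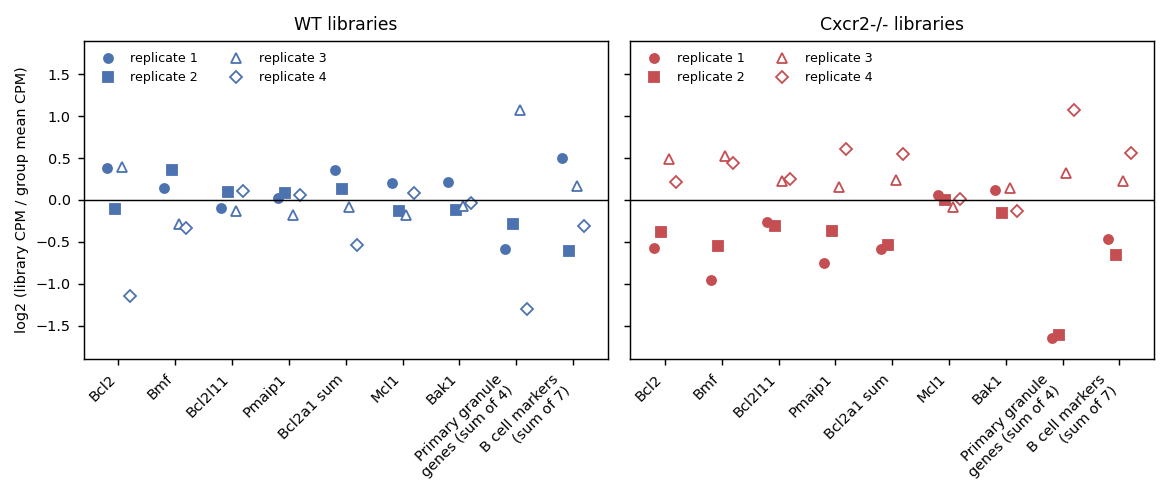
Deviation of each library from its group mean, as log2 of the ratio of CPM, for 7 family values and for the summed primary granule and B cell markers (left, WT; right, Cxcr2-/-; symbols, replicates). In the Cxcr2-/- panel the open symbols (replicates 3 and 4) lie above the filled ones (replicates 1 and 2) for Bcl2, Bmf, Bcl2l11, Pmaip1, the A1 sum and both marker sums, but not for Mcl1 and Bak1.

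Of the other 16 genes listed for the family, 10 could be tested, and 3 were higher and 4 lower with an adjusted p under 0.05, where 23.7% of all genes tested were higher and 21.0% lower. The clearest of them was Pmaip1, which encodes Noxa, the BH3-only protein that binds Mcl1 and A1. Pmaip1 was at 117, 121, 101 and 119 CPM in WT and at 15.1, 19.6, 28.2 and 38.5 CPM in Cxcr2-/- mice. No Cxcr2-/- library came near the WT range. Its log2 fold change was -2.17 (SE 0.23, 95% interval -2.67 to -1.68, adjusted p = 1.04e-05 by edgeR), so Noxa RNA was lower by more than Mcl1 RNA, and the ratio of Mcl1 to Pmaip1 per kb was 17.2 ± 1.88 in WT and 50.0 ± 21.4 in Cxcr2-/- mice, with ranges of 14.8 to 19.4 and 29.1 to 77.1.

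Bbc3, which encodes the BH3-only protein Puma, was at 14.4, 10.8, 11.1 and 15.2 CPM in WT mice and at 6.65, 6.502, 7.80 and 8.41 CPM in Cxcr2-/- mice, without overlap (log2 fold change -0.81, SE 0.15, adjusted p = 9.59e-04 by edgeR). Bad, a BH3-only gene whose protein is held inactive by survival kinases, moved the other way, from 13.1, 7.13, 10.6 and 11.6 CPM to 19.3, 15.3, 18.8 and 15.4 CPM (log2 fold change 0.70, SE 0.17, adjusted p = 0.00516 by edgeR). Bad shares 20.5% of its exon bases with Gpr137 on the opposite strand. Of the 8 BH3-only genes in the family list, 6 were tested, and 4 were lower (Bcl2l11, Bid, Bbc3 and Pmaip1), 1 was higher (Bad) and 1 did not pass (Bmf). The shares over all genes tested were 21.0% lower and 23.7% higher. Bik and Hrk were not tested, with at most 7 counts in any library.

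Bcl2l2, which encodes the pro-survival protein Bcl-w, was low in both groups and higher in Cxcr2-/- mice, at 1.44, 0.924, 0.962 and 1.24 CPM in WT mice and at 2.58, 1.77, 2.29 and 2.92 CPM in Cxcr2-/- mice (log2 fold change 1.06, SE 0.24, adjusted p = 0.00353 by edgeR). The groups did not overlap. The pro-survival gene Bcl2l10 had 0 counts in each WT library and 2, 18, 14 and 5 counts in Cxcr2-/- libraries, and was not tested. A further A1 copy, Bcl2a1c, had 1 count in WT replicate 1, 1 in Cxcr2-/- replicate 4 and none elsewhere. Bok, an effector of other tissues, had 4 to 10 counts in WT and 1 to 18 counts in Cxcr2-/- libraries.

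The remaining family genes are known less for apoptosis than for mitophagy or are poorly described. Bnip3, a mitophagy receptor, was lower in Cxcr2-/- mice (12.3 ± 2.12 CPM in WT, 6.57 ± 0.864 CPM in Cxcr2-/- mice, log2 fold change -0.90, adjusted p = 4.44e-04 by edgeR). Its relative Bnip3l was at 157 ± 16.7 and 163 ± 15.1 CPM (log2 fold change 0.055, adjusted p = 0.699 by edgeR), with a sign that turned negative under 3 other gene or scaling choices. Bcl2l15 was lower (log2 fold change -1.16, adjusted p = 0.0100) and Bcl2l13 higher (0.34, adjusted p = 0.0337), and the second call was lost in 9 alternatives, among them DESeq2 (adjusted p = 0.0669) and leaving out WT replicate 2 or 3 or Cxcr2-/- replicate 1 or 2 (adjusted p up to 0.134). Gene models on the same strand share 13.3% of the exon bases of Bcl2l2 and 20.97% of those of Bcl2l15. Bcl2l12 was at 0.784 ± 0.307 CPM in WT mice and at 1.36 ± 0.173 CPM in Cxcr2-/- mice and did not pass (log2 fold change 0.78, adjusted p = 0.0549 by edgeR). Bcl2l14 had at most 7 counts in any library and was not tested.

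In the list of apoptosome and caspase genes, those that passed were all higher in Cxcr2-/- mice. Of 10 listed and tested, 6 were higher, none was lower and 4 did not pass, with a median log2 fold change of 0.45, where 23.7% of all genes tested were higher. Apaf1, the scaffold of the apoptosome, was at 122, 130, 118 and 127 CPM in WT mice and at 189, 195, 159 and 177 CPM in Cxcr2-/- mice, without overlap (log2 fold change 0.54, SE 0.09, adjusted p = 4.19e-04 by edgeR). Its partners were higher by less or did not pass. Cycs (cytochrome c) changed by 0.35 on the log2 scale (adjusted p = 0.0283 by edgeR), and the call was lost in 10 alternatives, among them leaving out any 1 of 6 single libraries. Casp9, the initiator that the apoptosome activates, did not pass (0.11 on the log2 scale, adjusted p = 0.423 by edgeR).

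Casp8, the initiator that cleaves Bid, was at 23.8, 18.8, 22.6 and 23.5 CPM in WT mice and at 35.97, 34.3, 37.1 and 35.5 CPM in Cxcr2-/- mice (log2 fold change 0.69, SE 0.10, adjusted p = 1.10e-04 by edgeR). Casp8 was thus higher where its substrate Bid was lower. Dffa, which encodes the inhibitor of the DNA-cleaving nuclease Dffb, was higher (log2 fold change 0.67, adjusted p = 0.00203 by edgeR). Casp6 was at 3.39, 2.66, 8.67 and 5.69 CPM in the Cxcr2-/- replicates 1 to 4, against 2.31 to 3.22 CPM in WT (log2 fold change 0.90, adjusted p = 0.0361 by edgeR). Its rise was carried by Cxcr2-/- replicates 3 and 4, without which the log2 fold change was 0.13 (adjusted p = 0.707 by edgeR). The call was also lost without either of the pair alone and without any 1 of the 4 WT libraries (adjusted p up to 0.158).

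Among 7 inhibitor of apoptosis genes and their antagonists, 1 was higher and 3 were lower, where 23.7% of all genes tested were higher and 21.0% lower. The one that was higher was Birc5 (log2 fold change 2.10, adjusted p = 3.92e-07 by edgeR), which encodes survivin and is known above all as a mitotic gene. It also belongs to the cycling markers, which were higher for 6 of 6 genes. Birc2 and Birc3, which encode cIAP1 and cIAP2, ubiquitin ligases of the TNF receptor pathway, were lower (log2 fold changes -0.59 and -0.42, adjusted p = 2.30e-04 and 0.00123 by edgeR). Diablo, whose protein is released from mitochondria and blocks the inhibitors, was lower as well (-0.91, adjusted p = 0.00156 by edgeR). Xiap, the inhibitor that binds caspases directly, was at 134 ± 11.4 CPM in WT mice and at 142 ± 18.8 CPM in Cxcr2-/- mice (log2 fold change 0.084, adjusted p = 0.558 by edgeR).

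All 4 tested genes of mitochondrial partners were higher, by less than most members, where 23.7% of all genes tested were higher. Vdac1, an outer membrane channel, was at 36.6, 29.4, 33.2 and 32.9 CPM in WT mice and at 54.9, 55.2, 49.8 and 56.6 CPM in Cxcr2-/- mice (log2 fold change 0.71, SE 0.09, adjusted p = 5.25e-05 by edgeR). Vdac2, known to hold Bak in the membrane, was higher by 0.43 on the log2 scale (adjusted p = 0.00196), Vdac3 by 0.52 (adjusted p = 0.00572) and Aifm1, a flavoprotein released from mitochondria, by 0.51 (adjusted p = 0.00862), all by edgeR. Without Cxcr2-/- replicates 3 and 4 the calls of Vdac3 and Aifm1 were lost (adjusted p = 0.0781 and 0.102 by edgeR). Endog was not tested, with at most 15 counts in any library.

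Among 11 genes known to regulate family members, none was higher and 5 were lower, with a median log2 fold change of -0.29. Of all genes tested, 44.7% passed in either direction, which 5 of 11 is near, while 21.0% were lower and 23.7% higher. Ddit3, which encodes the stress factor Chop that induces Bcl2l11 and Bbc3, was at 39.1, 43.5, 35.7 and 45.9 CPM in WT mice and at 17.5, 13.97, 17.5 and 15.8 CPM in Cxcr2-/- mice (log2 fold change -1.34, SE 0.11, adjusted p = 1.83e-06 by edgeR). Pim1, a kinase whose protein inactivates Bad, was at 630, 679, 593 and 779 CPM in WT mice and at 334, 272, 386 and 363 CPM in Cxcr2-/- mice (log2 fold change -0.98, SE 0.13, adjusted p = 5.64e-05 by edgeR). Foxo3, a forkhead factor known to act on Bcl2l11, was lower (-0.50, adjusted p = 0.00354 by edgeR). Gsk3b, a kinase that marks Mcl1 protein for decay, was lower by a small amount (-0.29, adjusted p = 0.0207 by edgeR), as was Fbxw7, a ligase of Mcl1 protein (-0.29, adjusted p = 0.0113 by edgeR). Both calls were lost without Cxcr2-/- replicates 3 and 4 (adjusted p = 0.144 and 0.063 by edgeR), and that of Gsk3b also without WT replicate 4 (adjusted p = 0.0699) or Cxcr2-/- replicate 3 alone (adjusted p = 0.0647). The Mcl1 ligase Huwe1 (log2 fold change -0.081), the Mcl1 deubiquitinase Usp9x (-0.029) and Trp53 (-0.095), a regulator of Bbc3, Pmaip1 and Bax, did not pass (adjusted p = 0.602, 0.825 and 0.589 by edgeR). Foxo1 differed between the Cxcr2-/- libraries in the same way as Bmf, at 1.997, 2.93, 6.25 and 6.003 CPM in replicates 1 to 4 against 3.56 to 7.24 CPM in WT.

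**Figure D5:**
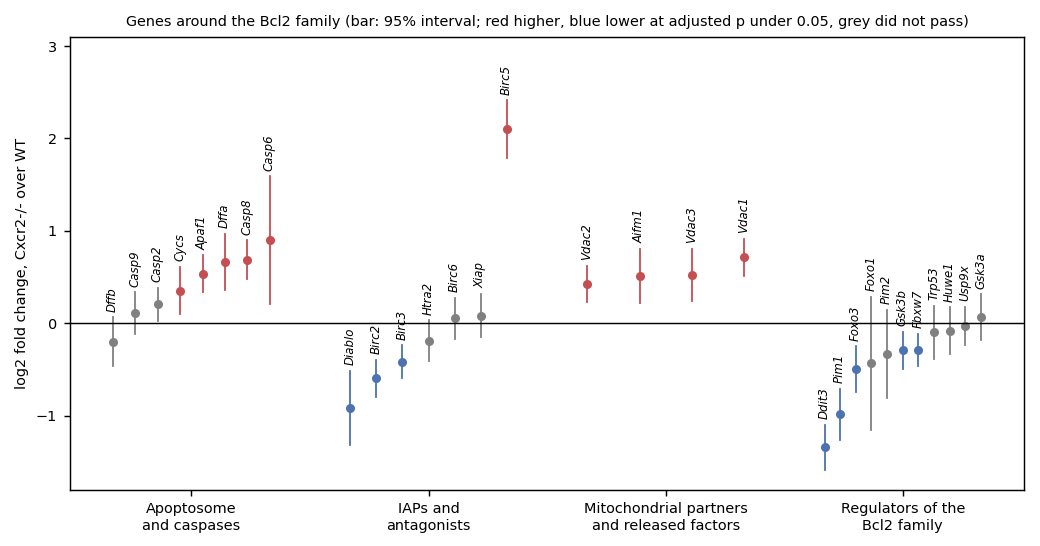
log2 fold change, Cxcr2-/- over WT, with its 95% interval for tested genes of 4 lists around the Bcl2 family, without those not reported here. Coloured caspase and mitochondrial partner genes lie above 0, coloured regulators lie below 0, and Birc5 (2.10) stands highest.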

How the data were processed

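RNA from sorted spleen neutrophils of 4 WT and 4 Cxcr2-/- mice was depleted of ribosomal RNA, made into strand-specific libraries and sequenced from both ends. After trimming, the authors mapped the reads to mm10 with STAR, assigned them to genes with HTSeq and deposited whole-number counts per gene without normalization. The strand setting is not given in the sources used here. Of the identifiers, 52133 had an entry in GENCODE M21 and 3281 had none. Most had a higher version number than in M21, so the counting annotation was a later release, and lengths and overlaps of genes were taken from M21. HTSeq's own totals stayed out of library sizes.

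Counts were tested with edgeR 4.0.16 in R 4.3.3 (glmQLFit and glmQLFTest, TMM, filterByExpr, Benjamini-Hochberg adjustment over all genes tested). CPM, SDs, ratios and sequence comparisons were computed with Python 3.11.15. DESeq2 1.42.0, the tool of the study, other scalings, filters, a replicate block and each library left out were alternatives. The biological coefficient of variation was 0.202, and A1 counts were as low as 2 per library. Steps were tested on simulated data. Replicates were compared pairwise and differed beyond counting error, with a chi-square per gene between 23.9 and 99.0.

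The members and lists were chosen with earlier results of these data known. Named were all members and listed family genes, up to 4 genes with the largest change among those that passed per further list, and Casp9, Apaf1, Cycs and Xiap. Fbxw7, Huwe1, Usp9x, Trp53, Foxo1, Dffb and Endog were named outside that rule after their values were seen. Certain genes that the rule names are not reported here. Protein sequences were not used here.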

Additional observations from a re-analysis of the deposited data

Results flagged for a closer look

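In groups of 4 libraries, the gap of the highest or lowest library to its nearest neighbour was set against the range of the group for 96 pairs of a listed gene and a group. It stood out in 5, where chance gives about 1 in 20, or 4.8. Foxo3 in WT had a gap of 0.938 of the range, with 346 CPM in replicate 3 against 444 to 451 CPM in the others. Dffa in WT had a gap of 0.838, with 7.74 CPM in replicate 2 against 6.10 to 6.37 CPM. The gap was 1, the whole range, for Bcl2a1c in both WT and Cxcr2-/- and for Hrk in WT, where 1 library held the 1 or 2 counts of the group. None of the 10 members stood out in this way.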

How the results depend on the processing

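The 2 higher and 6 lower members kept their direction and passed in each alternative that tested them. With at least 10 counts in every library Bcl2a1b and Bcl2a1d were not tested, and with the A1 copies summed they count as 1 gene, so 4 lower members are left in both. The replicate numbers of WT and Cxcr2-/- mice are different animals and did not pair them (correlations of deviations 0.12, -0.19, 0.16 and -0.26). With the replicate block the members still gave 2 higher and 6 lower, and Bcl2a1d had an adjusted p of 0.0411 by edgeR. Among the other family and wider apoptosis genes, 14 higher and 12 lower became 13 and 12 with the block, and 10 to 14 higher and 11 to 14 lower over all alternatives. Upper-quartile scaling moved the median of all genes from 0.013 to -0.11 on the log2 scale and the split of all 1.5-fold calls from 2628 higher and 2628 lower to 1975 and 3227.

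Of 712 pairs of an alternative and a gene named by the rule, 658 kept direction and side of the threshold, 34 lost the call, 6 gained it and 14 turned in sign, all of the latter in genes that did not pass. With 1 library left out, Bcl2 ranged from -0.29 to 0.097 (above 0 without WT replicate 1 or 3 or Cxcr2-/- replicate 1 or 2), Bax from -0.19 to 0.053 (above 0 without Cxcr2-/- replicate 2), Bmf from -0.38 to 0.073 (above 0 without Cxcr2-/- replicate 1), Bnip3l from -0.030 (without WT replicate 2) to 0.12 and Xiap from -0.00046 (without Cxcr2-/- replicate 2) to 0.14. Bnip3l was at -0.064 with upper-quartile scaling, -0.030 with total counts and -0.018 with protein-coding genes only. Casp9 was at -0.010 and Xiap at -0.034 with upper-quartile scaling, and Xiap at -0.0045 with total counts. Lost calls were those of Cycs and Casp6 (10 alternatives each), Bcl2l13 (9), Gsk3b (3), Aifm1 and Vdac3 (1 each). Outside the rule, Fbxw7 lost its call (adjusted p = 0.063) and Foxo1 gained one (log2 fold change -1.25, adjusted p = 0.00324, both by edgeR) without Cxcr2-/- replicates 3 and 4, and Huwe1 (0.013 without WT replicate 2) and Usp9x (0.014 without Cxcr2-/- replicate 3) turned in sign. The cause was not tested. The A1 copies rest on 2 to 106 counts per library.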
